A study of Mus musculus with 12 samples.

Results

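The genes described here are 10 members of the canonical Wnt pathway, taken by symbol from the deposited count tables of 12 libraries of mouse glomerular RNA. Of them 5 encode secreted Wnt antagonists (Sost, Sfrp1, Sfrp2, Dkk2 and Wif1) and 5 are transcribed in response to beta-catenin (Axin2, Lef1, Nkd1, Rnf43 and Ccnd1). All 10 were among the 16293 genes listed after streptozotocin (STZ), and 9 were among the 13480 listed at baseline, where Rnf43 was not listed. The tables together listed 16298 genes, of which 13475 were in both arms.

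The study removed Dach1, a transcriptional cofactor, from podocytes, the epithelial cells that wrap the glomerular capillaries, and asked which genes changed without it, with and without diabetes. There were 4 groups of 3 mice each, all C57BL/6: controls and mice with a knockout of Dach1 in podocytes, both at 10 weeks of age under basal conditions, and both genotypes 10 days after diabetes was induced with STZ, a toxin of the insulin-producing beta cells given in the abdomen at 50 μg/g per day on 5 consecutive days. Glomeruli were collected on magnetic beads perfused through the heart. The labels name neither the driver of the podocyte deletion nor the alleles of the controls nor the age of the STZ mice; titles of the STZ controls begin with "hetN" and those of the baseline controls with "Ctrl", and what this says of their genotype is not stated. The replicate numbers used below follow the order of deposition and only name the libraries.

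Each library was a whole glomerular preparation, so a knockout confined to podocytes was read in RNA that also came from endothelial, mesangial and other cells, and fewer cells of a type cannot be told apart from less RNA per cell. The STZ libraries were the deeper ones, with 6.61e+07 to 7.86e+07 deposited counts each against 2.26e+07 to 2.49e+07 for the baseline libraries. Values below are CPM, a gene's count relative to its library's total on the usual common scale, after TMM scaling over the 13475 shared genes (over the STZ libraries alone for Rnf43). Dach1 stood at 106 to 188 CPM in the 6 control libraries and at 47.2 to 67.0 CPM in the 6 knockout libraries, with no overlap. Xist and Ddx3y marked replicates 1 and 2 of both baseline groups as female and replicate 3 as male, and all STZ libraries as male except knockout replicate 2. STZ therefore cannot be told apart from depth, from the table a library came from, or, but for single libraries, from sex.

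Wnt proteins bind Frizzled receptors with LRP5 or LRP6 and so stop the complex of axin, APC, GSK3 and CK1 from marking beta-catenin for destruction; beta-catenin then enters the nucleus and joins TCF/LEF proteins at its target genes. Secreted antagonists act outside the cell, either by binding the Wnt ligand (the SFRP family and WIF1) or by occupying LRP5 and LRP6 (sclerostin, the product of Sost, and the DKK family). Several target genes encode brakes on the same pathway, and both excess and loss of beta-catenin in podocytes are known to injure the glomerular filter.

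Promoter windows of the 3 members that passed a test in these data (Sost, Sfrp2 and Nkd1) are shown first, that of Nkd1 at an internal start. Those of Axin2, a widely used readout of beta-catenin, and of the one member start that held a TCF/LEF word, an internal start of Lef1, follow. Each is the 250 bases before a RefSeq transcription start in GRCm38.p6, written 5′ to 3′ on the gene's strand. The words searched were CTTTGAA or CTTTGAT or CTTTGTA or CTTTGTT for TCF/LEF, TATAAA for the TATA box and GGGCGG for the GC box, on both strands. No match overlapped another at these starts. Capitals mark matches on either strand, a match on the opposite strand being capitalised as its complement reads here.
Sost, minus strand, chr11:101967016-101967265: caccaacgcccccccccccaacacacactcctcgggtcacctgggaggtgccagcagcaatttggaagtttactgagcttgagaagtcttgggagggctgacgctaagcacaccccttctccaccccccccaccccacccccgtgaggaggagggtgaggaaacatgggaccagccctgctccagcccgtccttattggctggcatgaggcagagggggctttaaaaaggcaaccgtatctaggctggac
Sfrp2, plus strand, chr3:83766071-83766320: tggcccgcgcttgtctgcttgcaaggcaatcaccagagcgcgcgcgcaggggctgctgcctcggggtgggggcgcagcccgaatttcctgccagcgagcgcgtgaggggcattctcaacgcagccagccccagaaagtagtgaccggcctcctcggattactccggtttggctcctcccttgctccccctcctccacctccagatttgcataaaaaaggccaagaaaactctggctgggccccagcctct
Nkd1, plus strand, chr8:88527383-88527632: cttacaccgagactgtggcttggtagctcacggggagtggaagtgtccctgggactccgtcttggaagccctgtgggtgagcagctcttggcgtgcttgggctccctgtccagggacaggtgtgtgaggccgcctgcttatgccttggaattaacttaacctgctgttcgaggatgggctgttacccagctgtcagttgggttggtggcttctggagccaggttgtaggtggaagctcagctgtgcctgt
Axin2, plus strand, chr11:108920099-108920348: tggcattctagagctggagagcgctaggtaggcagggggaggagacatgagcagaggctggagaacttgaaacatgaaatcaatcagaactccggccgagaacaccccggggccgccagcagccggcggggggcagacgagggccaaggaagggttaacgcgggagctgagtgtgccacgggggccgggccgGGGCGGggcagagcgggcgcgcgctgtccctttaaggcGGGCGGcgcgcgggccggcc
Lef1 internal start, plus strand, chr3:131156044-131156293: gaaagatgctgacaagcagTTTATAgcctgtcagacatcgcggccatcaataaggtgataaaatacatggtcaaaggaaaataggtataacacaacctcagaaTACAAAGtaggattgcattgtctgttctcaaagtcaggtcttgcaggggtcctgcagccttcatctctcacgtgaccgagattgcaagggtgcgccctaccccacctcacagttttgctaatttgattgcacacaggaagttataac

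RefSeq promoters were matched for 8 of the 10 members, with 12 starts in all; Sfrp1 and Ccnd1 were not matched. A TCF/LEF word was found at 1 of the 12 starts, against 14.8% of 32851 RefSeq promoters of this length. It is the CTTTGTA before the Lef1 start shown above, 147 bases upstream on the opposite strand. That start lies inside the Lef1 gene (3:131110471-131224356, plus strand), and the other 3 Lef1 starts, nearer its 5′ end, held no TCF/LEF word. The Axin2 promoter held 24 CpG dinucleotides and 69.2% G or C, against medians of 6 and 52.4% over all promoters, and its GC boxes lie 58 and 20 bases before the start. The windows shown for Sost, Sfrp2 and Nkd1 held none of the words. The Nkd1 start also lies inside its annotated gene (8:88521354-88594884, plus strand), and the 5′ end of that gene was not searched. A match describes letters in this window only, and these libraries measured no binding.

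Per length of transcript, the antagonists stood above the targets other than Ccnd1. In baseline controls, CPM per kilobase of annotated exon (GENCODE M21) was 557 ± 59.3 for Sfrp2, 94.9 ± 38.2 for Dkk2, 73.4 ± 10.8 for Ccnd1, 36.8 ± 5.01 for Wif1 and 30.8 ± 13.9 for Sfrp1 (SD, n = 3). It was 6.37 ± 0.939 for Sost, 4.47 ± 0.540 for Nkd1, 1.95 ± 0.313 for Axin2 and 0.496 ± 0.0522 for Lef1. The neighbouring pairs Dkk2 and Ccnd1, and Wif1 and Sfrp1, differed by less than their spread. Sfrp2 remained first in every group, at 160.0 CPM per kilobase in STZ controls and 155 in STZ knockouts, while the mean of Sost lay above that of Sfrp1 in both STZ groups. Rnf43 was last in both STZ groups, at 0.312 ± 0.0907 and 0.253 ± 0.00559 CPM per kilobase (SD, n = 3), beside Lef1 at 0.398 ± 0.0612 and 0.278 ± 0.0313; these neighbours also differed by less than their spread.

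**Figure D1:**
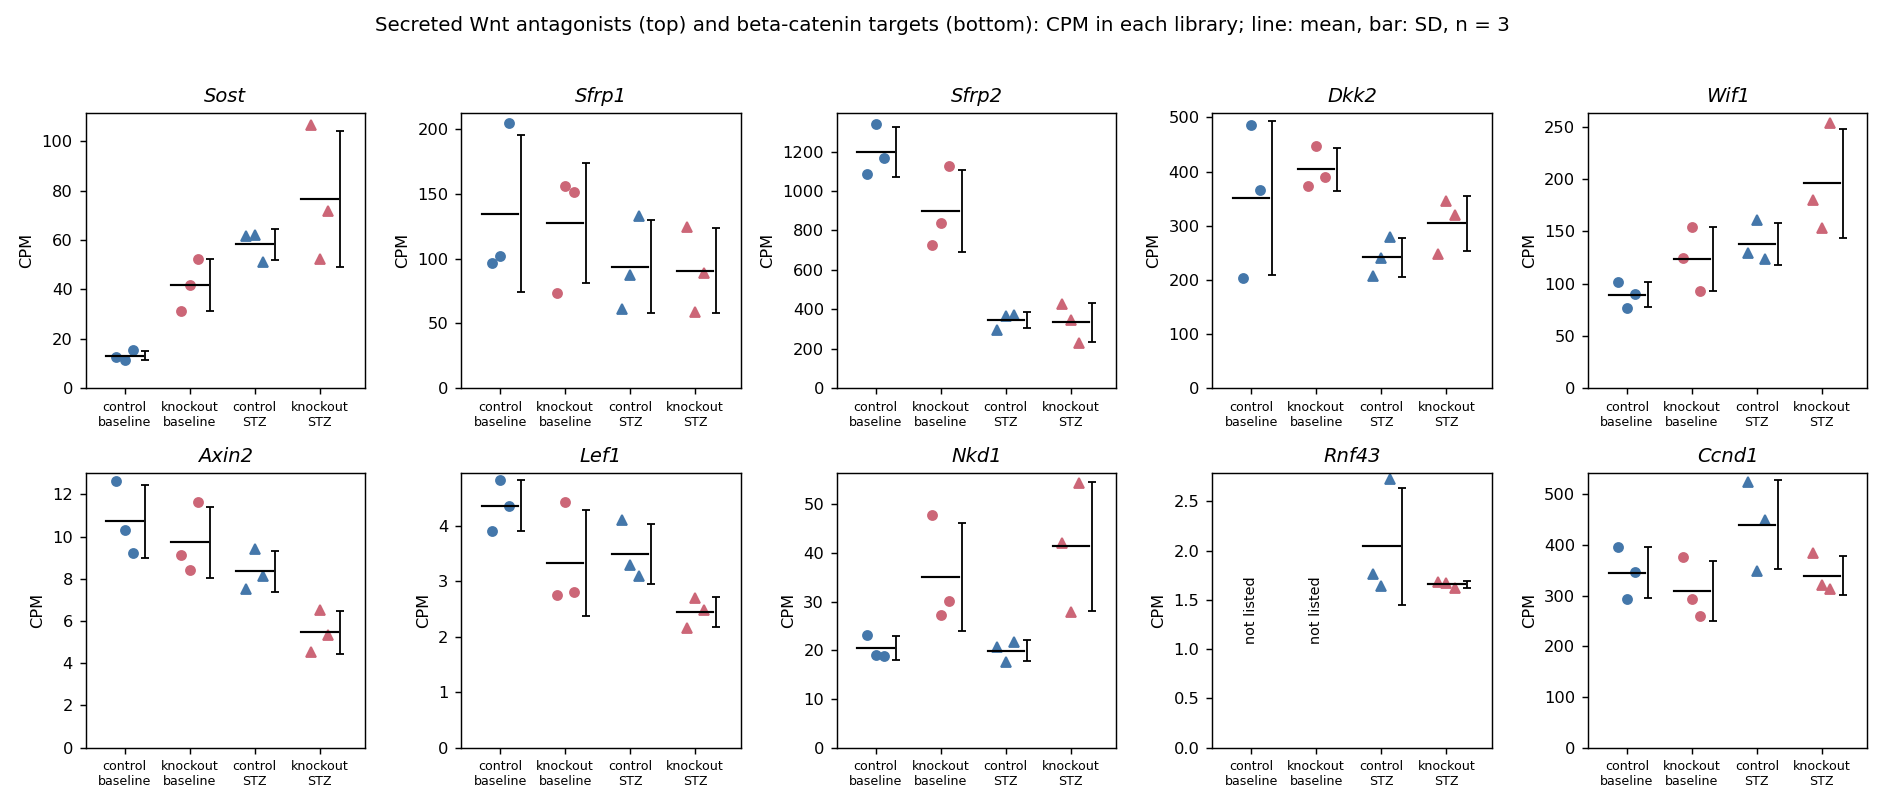
CPM of the 10 members (vertical axes, each from 0) in the 12 libraries, by group; points are libraries, lines group means and bars SD (n = 3). Sost was lowest in baseline controls (11.5 to 15.3 CPM), Sfrp2 stood at 724 or more in all baseline libraries and at 426 or less in all STZ libraries, and Nkd1 was above every control in every knockout library.

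The comparison of STZ with baseline asks what early diabetes did to these genes. In controls, Sost rose and Sfrp2 fell, and these were the 2 of 9 members tested that passed (edgeR quasi-likelihood test, Benjamini-Hochberg adjusted over 13473 genes); 0.23% of all genes passed. Groups did not overlap for 3 of 9 members (Sost and Wif1 higher, Sfrp2 lower), against 19.8% of all genes. The median log2 change of the 9 members was −0.35, against 0.02 over all genes tested.

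Sost (11:101962458-101967015, minus strand) encodes sclerostin, best known as the osteocyte's brake on bone formation. It was counted at 12.7, 11.5 and 15.3 CPM in the baseline controls and at 61.7, 62.1 and 51.1 CPM in the STZ controls. Every STZ control was above every baseline control. All STZ controls were male, the lone male baseline control was at 15.3 CPM, and 1 library cannot tell sex apart from STZ. The change was 4.34-fold, a log2 fold change of 2.12 with an SE of 0.15 (edgeR adjusted p = 0.00598). The call was lost with sex as a covariate (log2 fold change 1.91, adjusted p = 0.159), without baseline control replicate 1 (adjusted p = 0.0578) and without STZ control replicate 2 (adjusted p = 0.0606); over all 13 alternatives adjusted p ran from 1.42e-26 (DESeq2) to 0.159.

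In knockouts the same step did not pass. Sost was at 31.5, 41.6 and 52.5 CPM at baseline and at 107, 52.2 and 71.6 CPM after STZ, where the highest baseline library and the lowest STZ library were nearly level. Its log2 fold change was 0.85 with an SE of 0.29 (edgeR adjusted p = 0.253). The difference between the genotypes in this step was −1.27 on the log2 scale with an SE of 0.36, which had an unadjusted p of 0.00510 and an adjusted p of 0.975 in the edgeR interaction test. No member passed that test, and 1 gene did among all tested, or 0.00742%.

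Sfrp2 (3:83766321-83774316, plus strand) encodes a secreted decoy that carries a Frizzled-like domain and is made mostly by stromal cells. Baseline controls held 1088, 1339 and 1169 CPM and STZ controls 297, 365 and 371 CPM. The groups were far apart. The lone male baseline control was at 1169 CPM, and 1 library cannot tell sex apart from STZ. The level was 3.56-fold lower after STZ, with a log2 fold change of −1.83 and an SE of 0.16 (edgeR adjusted p = 0.0125). The size of this step moved little when libraries were left out, from −1.89 to −1.74, but the call was lost without 5 of the 6 libraries. Adjusted p was 0.0578, 0.0577 and 0.0664 without baseline control replicates 1, 2 and 3, 0.0613 and 0.0923 without STZ control replicates 1 and 2, and 0.191 with sex as a covariate, and the lowest of all 13 alternatives was 4.85e-28 with DESeq2. In knockouts Sfrp2 was at 724, 840 and 1127 CPM at baseline and at 426, 344 and 230 CPM after STZ, again with no overlap. That log2 fold change was −1.45 with an SE of 0.27 (edgeR adjusted p = 0.108).

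Wif1, whose product binds Wnt ligands directly, was at 101, 76.9 and 90.0 CPM in baseline controls and at 129, 161 and 123 CPM in STZ controls. These groups did not overlap, with a log2 fold change of 0.59 and an SE of 0.16 that did not pass (edgeR adjusted p = 0.249, or 0.0474 with DESeq2). In knockouts it was at 124, 154 and 93.0 CPM at baseline and at 180, 153 and 254 CPM after STZ. The log2 fold change there was 0.64 (SE 0.25, edgeR adjusted p = 0.320), and the highest baseline library was level with the lowest STZ library to within 1 CPM.

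Sfrp1, a relative of Sfrp2, and Dkk2, an LRP6-binding antagonist, varied widely among baseline controls. Dkk2 was at 203, 485 and 366 CPM in baseline controls and at 207, 240 and 279 CPM in STZ controls, which lie inside the baseline range. Its log2 fold change was −0.57 (SE 0.30) in controls and −0.43 (SE 0.16) in knockouts, where 374, 448 and 390 CPM at baseline stood above 247, 346 and 320 CPM after STZ. Sfrp1 spanned 96.9 to 205 CPM in baseline controls and 61.4 to 133 CPM in STZ controls. Neither gene passed in controls or knockouts, with edgeR adjusted p of 0.575 and 0.559 for Sfrp1 and of 0.484 and 0.313 for Dkk2.

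Among the target genes none passed in either genotype after STZ. Axin2, the scaffold of the destruction complex and a feedback brake, was at 12.6, 10.3 and 9.24 CPM in baseline controls and at 7.49, 9.43 and 8.14 CPM in STZ controls. The knockouts were further apart, at 9.10, 8.42 and 11.6 CPM at baseline and 4.52, 6.55 and 5.35 CPM after STZ, with no overlap. The log2 fold changes were −0.39 (SE 0.17) in controls and −0.85 (SE 0.21) in knockouts, with edgeR adjusted p of 0.413 and 0.156. Lef1, a TCF/LEF factor that is itself a target, had log2 fold changes of −0.35 (SE 0.19) and −0.46 (SE 0.25). Nkd1 was within 0.20 of no change on the log2 scale in both genotypes, at −0.06 (SE 0.14) in controls and 0.20 (SE 0.32) in knockouts. Ccnd1 (cyclin D1, which drives entry into the cell cycle) had log2 fold changes of 0.32 (SE 0.20) and 0.10 (SE 0.18).

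In the knockouts 0 of 9 members passed the edgeR test for STZ against baseline, where 0.178% of all genes passed. An unadjusted p under 0.05 in that test was found for 5 of the 9, beside 1983 of all 13473 genes. DESeq2 passed Sfrp2 (adjusted p = 2.78e-05) and Axin2 (0.0172). Groups did not overlap for 6 of 9 members under the scaling of these 6 libraries, with Sost and Wif1 higher and Sfrp2, Dkk2, Axin2 and Lef1 lower, against 21.6% of all genes. On the scale of the printed CPM, set over 12 libraries, 4 of the 9 did not overlap, since Sost and Wif1 then met by less than 1 CPM. Both STZ comparisons set libraries of a deeper table against a shallower one.

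Marker lists of other cells also had different levels in the STZ libraries, in few cases past the test. The 8 mesangial markers summed to 3290 to 4373 CPM in baseline controls and 1620 to 2599 CPM in STZ controls, and their median log2 change was −0.87, with 0 of 8 positive and none passing. The 6 interstitial fibroblast markers listed summed to 288 to 458 CPM and 191 to 224 CPM, with 1 of 6 passing as lower. The 7 immune markers summed to 32.9 to 53.1 CPM and 97.0 to 532 CPM, all 7 positive and none passing. Podocyte markers stood at 20074 to 27461 CPM and 29437 to 36030 CPM. The 8 endothelial markers summed to 9304 to 9605 CPM and 5411 to 8734 CPM, with 0 of 8 positive, a median log2 change of −0.39 and none passing. In knockouts the mesangial markers summed to 3544 to 3940 CPM at baseline and 2145 to 3190 CPM after STZ, with 7 of 8 negative, and the fibroblast markers to 186 to 241 CPM and 196 to 247 CPM, with 3 of 6 negative. The endothelial markers summed there to 7929 to 10663 CPM at baseline and 5156 to 6513 CPM after STZ, with 0 of 8 positive (median log2 change −0.55). Podocyte markers in knockouts summed to 18158 to 22319 CPM and 30478 to 31954 CPM, with 8 of 8 positive, and none of either list passed. In knockouts all 15 proximal tubule markers were negative (median log2 change −1.12) and all 6 smooth muscle and renin markers positive (median 0.73), none passing. None of the mesangial markers was near 0 in any library, the lowest being Pdgfra at 15.0 CPM. The part of these shifts in the changes of Sost and Sfrp2 was not tested.

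**Figure D2:**
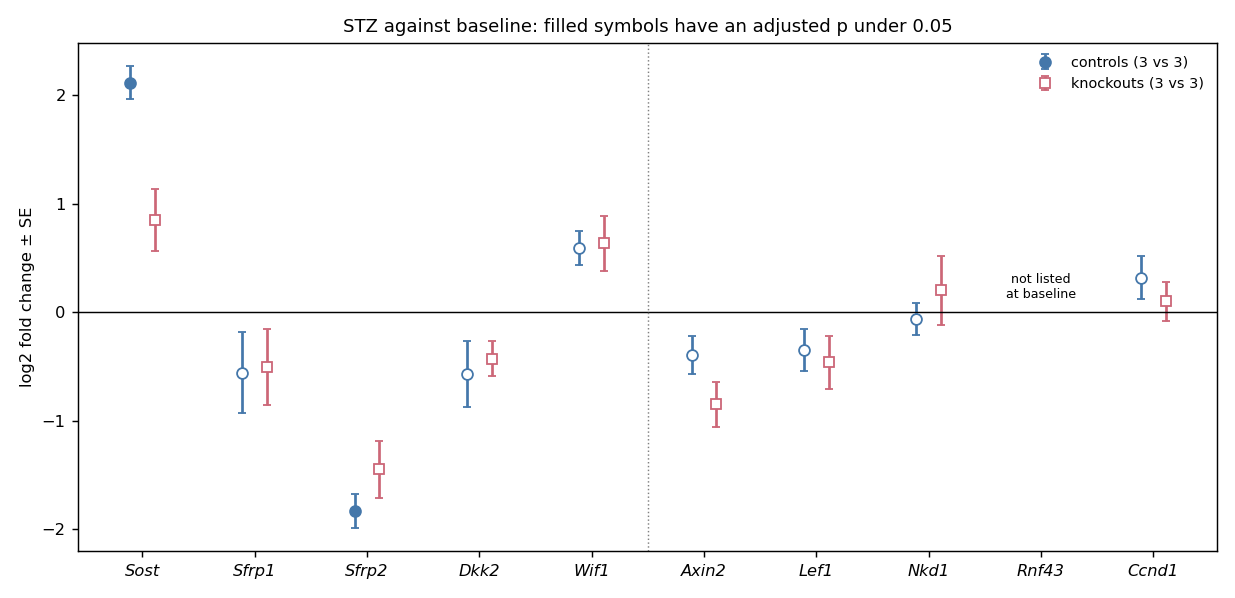
The log2 fold change of STZ over baseline (vertical axis) with its SE for each member, in controls (circles) and knockouts (squares); filled symbols passed an adjusted p of 0.05. Sost at 2.12 and Sfrp2 at −1.83 in controls are the filled symbols, and the sign is the same in both genotypes for every member tested except Nkd1.

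The comparison of genotypes asks what loss of Dach1 did to the pathway. Nkd1 rose in knockouts, and it was the 1 of 9 members that passed when both arms were fitted together with arm as a term; 2.83% of all 13475 genes passed that fit. None passed within an arm by the edgeR test, where 0.23% of genes passed at baseline and 1.07% after STZ. At an unadjusted edgeR p under 0.05 there were 2 of 9 members at baseline, beside 935 of all 13475 genes. After STZ there were 4 of 10 members, beside 1480 of all 16291 genes. DESeq2 passed Sost at baseline and Nkd1 after STZ (adjusted p = 0.00511). The fit over both arms shares all its libraries with the fits within arms, so these are not separate pieces of evidence.

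Nkd1 (8:88521354-88594884, plus strand) encodes naked cuticle 1, which binds Dishevelled and is induced by Wnt as a feedback inhibitor. It was at 23.2, 19.0 and 18.9 CPM in baseline controls and 47.7, 27.3 and 30.2 CPM in baseline knockouts. After STZ it was at 20.6, 17.6 and 21.6 CPM in controls and 41.9, 27.8 and 54.2 CPM in knockouts. All 6 knockout libraries were above all 6 controls. The lowest knockout in each arm was a female library, but so were the highest baseline knockout (47.7 CPM) and the highest baseline control (23.2 CPM). Over both arms the level was 1.89-fold higher, with a log2 fold change of 0.92 and an SE of 0.18 (edgeR adjusted p = 0.0158). Within arms the log2 fold changes were 0.78 with an SE of 0.23 (adjusted p = 0.522) and 1.05 with an SE of 0.24 (adjusted p = 0.151). The call over both arms was lost without STZ control replicate 2 (log2 fold change 0.87, adjusted p = 0.0502), and adjusted p over the 18 alternatives ran from 9.41e-05 to 0.0502. An annotated transcript on the same strand, Gm45496, lies inside the Nkd1 locus, and 5 of the 12 deposited Nkd1 values ended in 0.5, which no other member's did.

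Sost was also higher in knockouts at baseline without passing. The knockouts at 31.5, 41.6 and 52.5 CPM stood above the controls at 11.5 to 15.3 CPM, a 3.18-fold difference. Its log2 fold change was 1.67 with an SE of 0.22 (edgeR adjusted p = 0.0682). It passed with DESeq2 (adjusted p = 4.29e-09), without baseline knockout replicate 1 (0.0350), with a proximal tubule covariate (log2 fold change 1.52, adjusted p = 0.0479), in 1 fit of all 12 libraries (0.0164) and with the number shared by baseline titles as a replicate block (log2 fold change 1.65, adjusted p = 0.0428), and over all 14 alternatives adjusted p ran up to 0.331. After STZ the controls at 51.1 to 62.1 CPM overlapped the lower end of the knockouts at 52.2 to 107 CPM, with a log2 fold change of 0.40 (SE 0.25, edgeR adjusted p = 0.771). Over both arms it was 1.02 (SE 0.26, adjusted p = 0.0668), and it passed there with DESeq2 (0.00227), with sex as a covariate (0.0194) and without STZ knockout replicate 2 (0.0205).

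Groups did not overlap for 2 of 9 members at baseline (Sost and Nkd1, both higher in knockouts), against 11.8% of all genes. After STZ they did not overlap for 3 of 10 (Nkd1 higher, Axin2 and Lef1 lower), against 14.9% of all genes. The median log2 change of the members was −0.08 at baseline, −0.04 after STZ and −0.06 over both arms, beside 0.01, −0.02 and 0.00 for all genes. The median of the members thus stood near that of all genes, but it pooled classes whose medians had different signs. For the antagonists it was 0.20 at baseline, 0.34 after STZ and 0.27 over both arms, with 3 of 5 positive each time. For the targets tested it was −0.15, −0.37 and −0.32, with only Nkd1 positive. A difference between the classes was not tested. Nkd1 and Sost had the highest values at baseline and over both arms.

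Axin2 and Lef1 had lower values in STZ knockouts than in every STZ control. Axin2 was at 7.49, 9.43 and 8.14 CPM in STZ controls and 4.52, 6.55 and 5.35 CPM in STZ knockouts, a log2 fold change of −0.60 with an SE of 0.19 (edgeR adjusted p = 0.342). At baseline the genotypes overlapped, at −0.14 (SE 0.18). The difference between the arms was −0.47 (SE 0.26, adjusted p = 0.975). Lef1 was at 4.10, 3.29 and 3.09 CPM in STZ controls and 2.16, 2.70 and 2.48 CPM in STZ knockouts, a log2 fold change of −0.51 with an SE of 0.19 (edgeR adjusted p = 0.466). At baseline Lef1 was at 3.90, 4.82 and 4.35 CPM in controls and 2.74, 4.42 and 2.81 CPM in knockouts, where knockout replicate 2 lay among the controls. Over both arms Axin2 was at −0.38 (adjusted p = 0.262) and Lef1 at −0.45 (adjusted p = 0.158). Lef1 rested on 62 to 125 counts a library at baseline and 158 to 293 after STZ.

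The log2 values of these targets thus had different signs, positive for Nkd1 and negative for Axin2 and Lef1 in both arms. That of Axin2 at baseline (−0.14) was smaller than its SE (0.18), and only that of Nkd1 over both arms passed. Rnf43, which encodes a ubiquitin ligase that removes Frizzled from the cell surface, was at 1.77, 1.64 and 2.73 CPM in STZ controls and 1.69, 1.68 and 1.62 CPM in STZ knockouts. It rested on 118 to 190 counts a library, with a log2 fold change of −0.30 (SE 0.23, edgeR adjusted p = 0.848). Every gene listed after STZ reached at least 100 counts in some library, and 362 genes of the baseline table did not; a level for Rnf43 at baseline was not analysed here. Ccnd1 was at 396, 294 and 347 CPM in baseline controls and 376, 294 and 260 CPM in baseline knockouts, and at 524, 348 and 449 CPM and 384, 322 and 314 CPM after STZ. Its groups overlapped in both arms, with log2 fold changes of −0.16 (SE 0.18) and −0.37 (SE 0.18). The neighbouring protein-coding gene LTO1 overlaps Ccnd1 on the opposite strand, and whether counting used the strand is not given in the sources used here.

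The other antagonists did not pass for genotype in either arm. Wif1 had similar steps in both, with log2 fold changes of 0.47 (SE 0.20) at baseline and 0.51 (SE 0.21) after STZ, and 0.49 over both (SE 0.15, edgeR adjusted p = 0.135). Its knockout libraries at 93.0 to 154 CPM at baseline overlapped the controls at 76.9 to 101 CPM. Dkk2 was at 0.20 (SE 0.30) and 0.34 (SE 0.18), Sfrp1 at −0.08 (SE 0.40) and −0.05 (SE 0.34), and Sfrp2 at −0.42 (SE 0.20) and −0.04 (SE 0.23) on the same scale. With SEs of this size Sfrp1 gave little information on genotype, and its 3 baseline controls alone spread from 96.9 to 205 CPM.

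Tubule carry-over varied most among the baseline knockouts. The 15 proximal tubule markers summed to 2428 to 5150 CPM in baseline controls and 1582 to 22141 CPM in baseline knockouts, ranges that overlap, with all 15 positive, a median log2 change of 0.95 and none passing. The 22141 CPM was that of knockout replicate 3, the male one, where Kap alone reached 14206 CPM. On mean log2 CPM, which 1 gene moves less, the baseline knockouts were at 6.28, 8.77 and 9.05 and the controls at 6.93 to 8.00. After STZ the 15 markers summed to 1835 to 10125 CPM and 2576 to 9727 CPM, with a median change of −0.05. With these markers as a covariate Nkd1 over both arms was as large as without them, at 0.96 (adjusted p = 0.00550), and Sost at baseline was 1.52. The podocyte markers summed to 18158 to 22319 CPM in baseline knockouts, overlapping the controls, with 6 of 8 negative at a median log2 change of −0.35 and none passing. After STZ 1 of 8 podocyte markers passed as lower in knockouts, and over both arms 3 of 8 did. The smooth muscle and renin markers had 1 of 7 passing as higher after STZ and 0 of 6 over both arms. Of all genes 1.07% passed after STZ and 2.83% over both arms. Lists whose sums did not overlap at baseline were the 6 smooth muscle and renin markers, at 679 to 1056 CPM in controls and 435 to 557 CPM in knockouts, and the 6 fibroblast markers, at 288 to 458 CPM and 186 to 241 CPM, with none of either passing. By group mean, Col1a2 made up most of the fibroblast sum, at 253 CPM in controls and 129 CPM in knockouts. Ren1 was the largest of the smooth muscle and renin markers, at 408 and 152 CPM. In each list 5 of 6 were negative, the exceptions being Col3a1 and Tagln. On mean log2 CPM the fibroblast ranges overlapped, at 4.39 to 5.001 and 4.14 to 4.57. Those of smooth muscle and renin did not, at 6.16 to 6.66 and 5.54 to 5.84. The part of these lists in the genotype results was not tested.

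**Figure D3:**
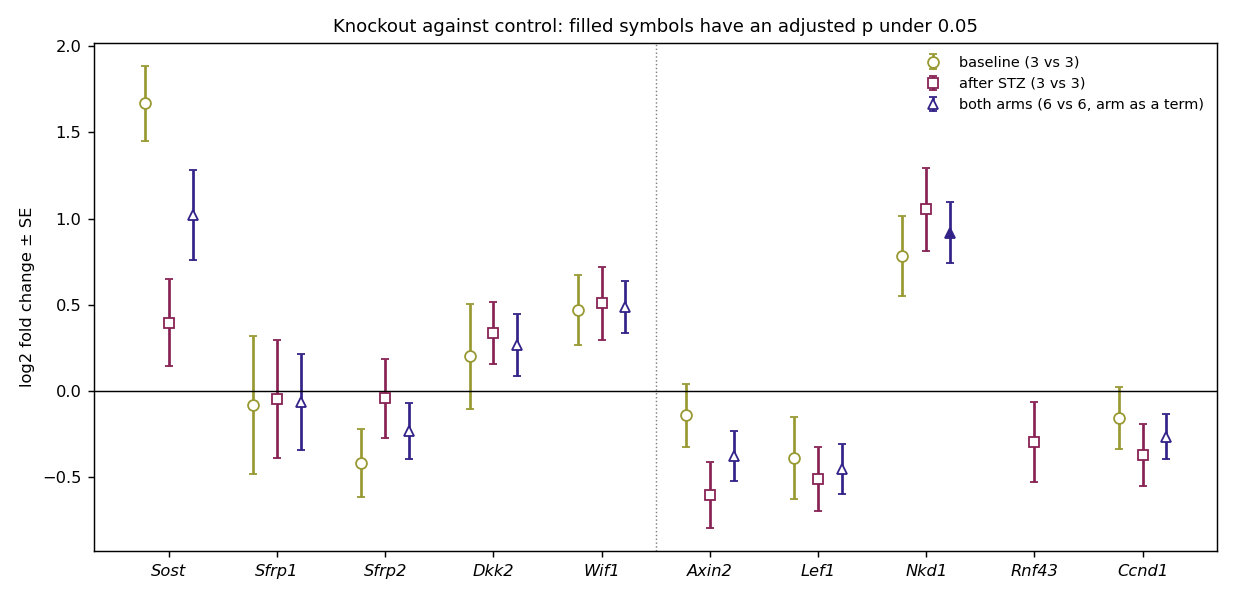
The log2 fold change of knockout over control (vertical axis) with its SE for each member, at baseline (circles), after STZ (squares) and over both arms (triangles); filled symbols passed an adjusted p of 0.05. Nkd1 at 0.92 over both arms is the filled symbol, and Sost at baseline (1.67) lies highest.

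The rest of the pathway was read from 108 further genes in 6 lists: ligands, receptors, secreted enhancers with their secretion machinery, other antagonists, intracellular components and other targets. Of these 73 were tested at baseline and over both arms and 86 after STZ. Within the STZ arm 2 of the 86 passed as higher in knockouts than in controls and 0 as lower, where 1.07% of all genes passed. Over both arms 2 of the 73 rose (Wnt5b and Wls) and 1 fell (Kremen1), where 2.83% of all genes passed. The median log2 change over both arms was −0.07 over the 73 genes beside 0.00 for all genes. None of the 73 passed at baseline or in either STZ comparison by the edgeR test. An unadjusted p under 0.05 in that test was found for 12 at baseline, 18 for STZ in controls and 16 for STZ in knockouts. Over all genes it was found for 935 of 13475, 1693 of 13473 and 1983 of 13473. DESeq2 passed Kremen1 at baseline (adjusted p = 1.09e-04) and after STZ (0.0338), and 1 edgeR fit of all 12 libraries passed it after STZ (0.0446). Of the ligands, 6 of 19 were listed at baseline and 12 after STZ.

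Wnt5b, a ligand usually placed on the beta-catenin-independent side of Wnt signalling, was at 7.90, 9.93 and 9.21 CPM in STZ controls and 28.1, 29.8 and 32.3 CPM in STZ knockouts. The knockout libraries lay close together and far above the controls, with a log2 fold change of 1.74 (SE 0.14, edgeR adjusted p = 0.00388). At baseline it was at 10.5, 6.44 and 13.7 CPM in controls and 15.8, 31.8 and 20.9 CPM in knockouts, also with no overlap, at 1.16 (SE 0.36, adjusted p = 0.549). Over both arms it rose by 1.45 (SE 0.21, adjusted p = 0.00295).

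Wls encodes Wntless, the carrier that takes Wnt ligands to the cell surface. It was at 458, 482 and 393 CPM in STZ controls and 1094, 1235 and 1083 CPM in STZ knockouts, a log2 fold change of 1.36 (SE 0.14, edgeR adjusted p = 0.0116). The groups were well apart, yet the call within the STZ arm was lost with sex as a covariate (adjusted p = 0.0545) and without STZ control replicate 2 (0.0635), knockout replicate 2 (0.0538) or knockout replicate 3 (0.0670). At baseline it was at 410, 331 and 439 CPM in controls and 599, 661 and 492 CPM in knockouts, and over both arms it rose by 0.96 (SE 0.16, adjusted p = 0.00534).

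Kremen1, a receptor that works with DKK proteins to clear LRP6 from the membrane, was the one that fell. It was at 234, 196 and 184 CPM in baseline controls and 128, 128 and 118 CPM in baseline knockouts, and at 238, 312 and 207 CPM and 139, 163 and 165 CPM after STZ. Knockouts were below controls in every library of each arm, with a log2 fold change over both arms of −0.71 (SE 0.10, edgeR adjusted p = 0.00296). Within arms Kremen1 did not pass the main edgeR test, at −0.72 at baseline (adjusted p = 0.128) and −0.69 after STZ (0.215).

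The genes of smallest p in each of the other lists over both arms did not pass the edgeR test. The receptors Fzd5 and Fzd2 were at −0.72 (edgeR adjusted p = 0.0549) and −0.53 (0.0685), and passed with DESeq2 (0.00565 and 0.00986). Fzd5 also passed with total-count scaling (0.0481) and without STZ control replicate 3 (0.0188) or STZ knockout replicate 2 (0.0335), and Fzd2 without STZ knockout replicate 1 (0.0303). The target Tnfrsf19 was at 0.59 (0.0720, or 0.00945 with DESeq2) and the TCF/LEF family member Tcf7 at −0.31 (0.197), and the intracellular components Csnk1a1 and Bcl9 were at −0.23 and −0.37 (both 0.197). Beta-catenin itself (Ctnnb1), the most abundant intracellular component per length, was at 215 CPM per kilobase in baseline controls and 223 in baseline knockouts, and its log2 change over both arms was −0.03 (SE 0.08). The most abundant receptor-side gene per length, Tspan12, was at −0.05 (SE 0.09), the most abundant of the other antagonists, Igfbp4, at 0.20 (SE 0.12), and the most abundant of the other targets, Bambi, at −0.22 (SE 0.18).

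**Figure D4:**
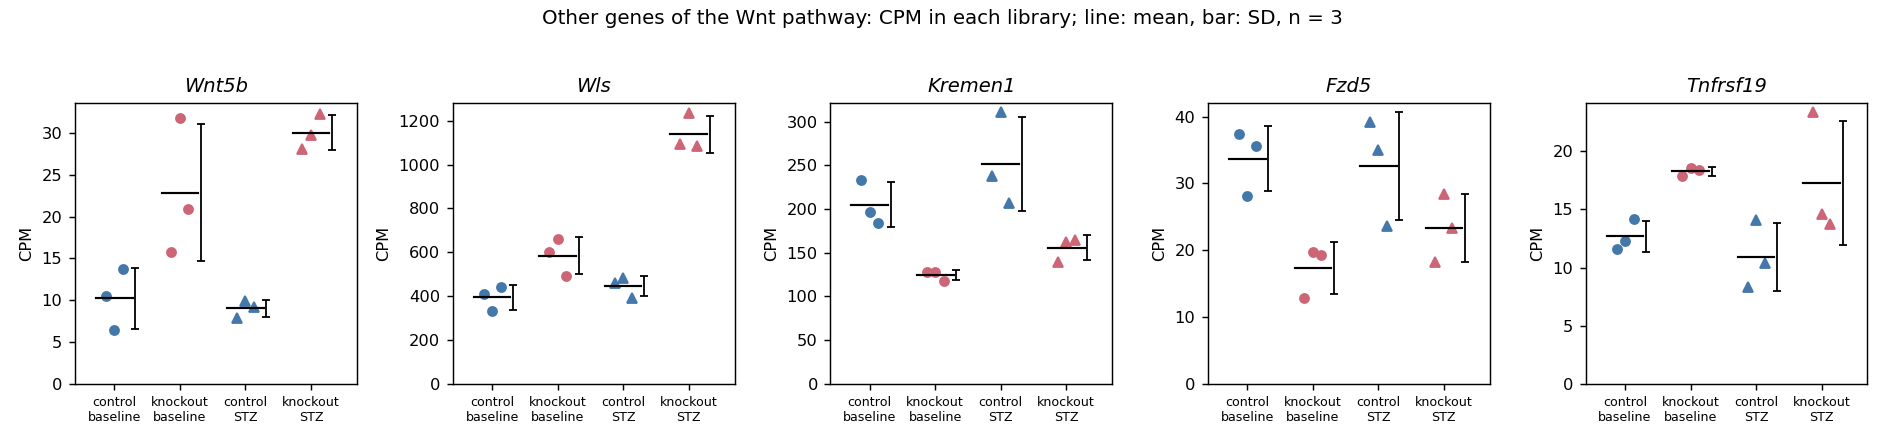
CPM (vertical axes, each from 0) of 5 further Wnt pathway genes in the 12 libraries, by group; points are libraries, lines group means and bars SD (n = 3). Wnt5b and Wls lie higher and Kremen1 lower in knockouts of both arms; Fzd5 and Tnfrsf19 did not pass.

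Genes of the most similar pattern were sought for Axin2 and Nkd1 among 13471 genes over the 12 libraries, as a description, since the libraries share their arms and depths. For Axin2 they were Sipa1l3 (Pearson r = 0.960), Tcf7 (0.945) and Smarca2 (0.920). For Nkd1 they were Tmem179b (0.898), Angptl7 (0.891) and Tnxb (0.879). Among the members themselves, Sost and Sfrp2 had r = −0.78 over the 12 libraries and 0.43 once each group's mean was taken away, so the opposed pattern was one between groups.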

How the data were processed

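RNA sequencing of glomerular RNA from 12 mice was analysed from tables of estimated counts per gene that the authors deposited, 1 per library. Per the submitters' processing notes the tools and build include BWA and mm10; for the counting tool, annotation, filters and strand setting, the entry is: not given in the sources used here. Between 10.5% and 11.5% of each library's deposited values ended in 0.5; values were rounded to whole numbers, and blanks (8 in the baseline tables, 10 in the STZ tables) were set to 0.

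Groups came from the labels, with 3 different mice each. Tests in R 4.3.3 used edgeR 4.0.16 with limma 3.58.1: the quasi-likelihood test on the counts with TMM scaling and edgeR's own filter on low counts, Benjamini-Hochberg adjustment over all genes tested and a threshold of 0.05. CPM per kilobase divides by the exon union of GENCODE M21 on GRCm38. The tests were also run on counts simulated from the fitted model. These held no difference in sex or tubule carry-over, so that check cannot show how the tests behave where libraries differ in either. Groups were called not overlapping on CPM scaled over the 6 libraries compared.

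The members and lists were chosen with earlier results of these data known. Named beyond the members were genes of the 6 Wnt lists called in a knockout comparison, otherwise the 2 of smallest p per list, the most abundant per list, and the 3 most correlated genes (log2 CPM, prior count 2, mean of at least 1 CPM). Alternatives were DESeq2 1.42.0, RLE and total-count scaling, no filter, covariates for sex and proximal tubule level, 1 fit of all 12 libraries, leaving out each library and, chosen after seeing the data, a replicate block at baseline. No 2 libraries of the same group agreed within sampling noise (chi-square per degree of freedom 42.0 to 352), and pairs from different groups were not compared.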

Additional observations from a re-analysis of the deposited data

How the results depend on the processing

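Counts of genes passing moved with the tool and the covariates. DESeq2 passed 220 genes for knockout at baseline, 565 after STZ, 697 over both arms, 410 for STZ in controls, 805 for STZ in knockouts and 31 for the interaction. With a proximal tubule covariate 66 and 331 genes passed for knockout at baseline and after STZ, 225 for STZ in knockouts and 0 for the interaction. With sex as a covariate 10 and 63 passed for knockout in the baseline and STZ arms, 6 for STZ in controls, 9 in knockouts and 0 for the interaction. In 1 fit of all 12 libraries 79 and 293 passed for knockout in the baseline and STZ arms, with 69 for STZ in controls and 251 in knockouts. RLE and total-count scaling passed 2 genes each for the interaction. Leaving out single libraries gave 4 to 51 genes for knockout at baseline, 40 to 109 after STZ, 4 to 12 for STZ in controls, 1 to 8 for STZ in knockouts and 0 to 2 for the interaction. The cause of these shifts was not tested.

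Of 813 alternative values for 55 member results, 758 kept direction and side of the threshold, 10 lost a call, 14 gained one and 31 changed sign, all 31 in results that had not passed. With sex as a covariate Sfrp1 turned to 0.18 for knockout after STZ and 0.076 over both arms, and Nkd1 to 0.054 for STZ in controls; with the proximal tubule covariate the Wif1 interaction turned to −0.036. Leaving out single libraries, log2 values for knockout ran from −0.076 to 0.50 for Dkk2 at baseline, −0.27 to 0.35 for Sfrp1 at baseline, −0.33 to 0.27 for Sfrp1 after STZ, −0.25 to 0.16 for Sfrp2 after STZ and −0.20 to 0.13 for Sfrp1 over both arms. For STZ they ran from −0.11 to 0.045 for Nkd1 in controls, −0.018 to 0.28 for Ccnd1 in knockouts and −0.049 to 0.51 for Nkd1 in knockouts. For the interaction they ran from −0.20 to 0.20 for Wif1, −0.18 to 0.41 for Dkk2, −0.41 to 0.36 for Sfrp1 and −0.25 to 0.11 for Lef1.

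The first number in the baseline titles, 10 or 11, is shared across genotypes, and the labels do not say what it marks. With that number as a replicate block, chosen after seeing the data, 60 genes passed for knockout at baseline, Sost passed (log2 fold change 1.65, adjusted p = 0.0428) and no other member's call changed. In the STZ arm no paired analysis was possible because the titles share no number across genotypes. Lef1, Axin2 and Rnf43 rest on the fewest counts; the widest SEs for knockout within an arm were those of Sfrp1.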
